A study of Mus musculus with 2 samples.

Results

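The genes described here are 3 C1q-like genes, C1ql1, C1ql2 and C1ql3, and 3 genes of the brain-specific angiogenesis inhibitor family of adhesion G protein-coupled receptors, Adgrb1, Adgrb2 and Adgrb3. They were taken by symbol, 6 of the 32285 genes counted, and read across cell types in 2 single-cell RNA sequencing libraries of optic nerve. The libraries, C-ON and FMC_new, both carry the NF1-OPG genotype, which the study's methods give as Nf1 flox/mut; GFAP-Cre. In these C57BL/6 mice, Cre under the GFAP promoter removes the floxed Nf1 copy in astroglial cells and their progenitors, the other copy is mutant in every cell, and optic pathway gliomas (OPG) form. Optic nerves of 10 mice aged 12 weeks were pooled before the cells were separated. The titles add "control" to C-ON and "FMC new" to FMC_new. Neither term is explained, and no second genotype or treatment is labelled, so the values were described in each library and no condition was tested. The labels do not say whether the libraries came from separate pools of mice, and the spread between them may be technical.

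C1q-like proteins are small secreted proteins with a globular C1q domain that assemble into multimers and are released at synapses. Adgrb3 encodes BAI3, a receptor that binds C1ql proteins and, through them, helps to form and keep synapses. Its relatives Adgrb1 and Adgrb2 encode BAI1, known as a receptor for the engulfment of dying cells, and BAI2. Oligodendrocyte precursor cells (OPCs) and gliomas that resemble them are cells that receive synaptic contacts from neurons, which is why these genes are of interest in optic glioma.

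C-ON held 10845 barcodes and FMC_new 21341, of which 8834 and 16818 cells passed the filters, with median depths of 6811 and 4676 unique molecular identifiers (UMIs, each standing for 1 captured RNA molecule) per cell. Clusters were made without the 6 genes and named from markers, and each name carries "-like" for this reason. Tumor-like cells, 215 in C-ON and 1387 in FMC_new, carried OPC markers: Pdgfra was found in 84.2% and 74.8% of them, and Cspg4 in 67.4% and 56.5%. OPCs that are not tumor cells would carry the same markers, so both kinds of cell cannot be told apart here. Oligodendrocyte-like cells were 5772 and 2657, neuron-like cells 35 and 20, and astrocyte-like cells 19 and 121. The libraries stand apart in makeup: oligodendrocyte-like cells were 65.3% of C-ON and 15.8% of FMC_new, and FMC_new held 1728 pituitary endocrine-like cells against 19 in C-ON. RNA from outside a cell was measurable. Mog, a myelin gene, was found in 18.9% of T cell-like cells in C-ON and 4.89% in FMC_new, and Gh, growth hormone, in 0% and 99.9%. The libraries shared 188 barcodes among kept cells, none of which was tumor-like in both.

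On the mouse mm10 (GRCm38) genome, the 3 ligand genes are short. C1ql1 lies at chr11:102939264-102946688 on the minus strand, C1ql2 at chr1:120340582-120343174 on the plus strand and C1ql3 at chr2:13003457-13011806 on the minus strand, each with 2 exons. The receptor genes are long and have many exons. Adgrb1 lies at chr15:74516195-74589465 (plus strand), Adgrb2 at chr4:129984870-130022633 (plus strand) and Adgrb3 at chr1:25067476-25829707 (minus strand), a span of 762232 bases. Coding sequences of the ligands, C1ql4 included, were 70.5% to 76.0% identical in pairs and those of the receptors 59.3% to 62.1%, and no stretch of 50 bases was shared between the transcripts of any pair. Exons of C1ql3 overlap 2 annotated genes on the opposite strand, Gm37811 and Gm37824, and the strand used in counting is not given in the sources used here, so C1ql3 counts are uncertain to that extent.

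RefSeq promoter windows (GRCm38.p6; from 250 bases before to 50 bases after the start) were found for 4 of the 6 genes, and 3 are shown because these genes differ in the cell types that carry them. C1ql2 (chr1:120340332-120340631, plus strand) was found mainly in tumor-like cells, C1ql3 (chr2:13010815-13011114, minus strand) was shared with neuron-like and oligodendrocyte-like cells, and Adgrb3 (chr1:25829658-25829957, minus strand) was shared with astrocyte-like cells as well. The C1ql3 window follows the RefSeq start, which lies inside the longer gene of the annotation given above. Capitals mark matches on either strand to the E-box letters CANNTG, the kind of site read by basic helix-loop-helix factors such as Olig2, and to the Sox-type letters ACAAT.
C1ql2: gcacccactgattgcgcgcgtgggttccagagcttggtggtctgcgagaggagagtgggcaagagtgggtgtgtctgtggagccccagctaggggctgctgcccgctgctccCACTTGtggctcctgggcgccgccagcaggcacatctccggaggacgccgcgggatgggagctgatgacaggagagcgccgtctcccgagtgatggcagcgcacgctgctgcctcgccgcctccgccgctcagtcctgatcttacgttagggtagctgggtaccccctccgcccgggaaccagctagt
C1ql3: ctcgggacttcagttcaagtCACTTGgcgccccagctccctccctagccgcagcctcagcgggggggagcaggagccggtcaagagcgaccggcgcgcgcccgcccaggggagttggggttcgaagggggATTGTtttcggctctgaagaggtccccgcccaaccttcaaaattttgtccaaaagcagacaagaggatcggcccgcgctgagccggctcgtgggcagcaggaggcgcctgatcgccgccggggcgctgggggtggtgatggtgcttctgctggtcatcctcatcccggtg
Adgrb3: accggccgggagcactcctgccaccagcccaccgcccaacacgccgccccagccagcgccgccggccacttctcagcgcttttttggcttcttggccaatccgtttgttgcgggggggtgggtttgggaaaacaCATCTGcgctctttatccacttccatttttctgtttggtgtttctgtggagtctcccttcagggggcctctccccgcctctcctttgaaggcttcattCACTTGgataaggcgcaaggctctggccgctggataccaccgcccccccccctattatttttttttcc
The C1ql2 and C1ql3 windows each held 1 E-box match, and the Adgrb3 window held 2. Among 32851 promoter windows of this length, 72.3% held such a match, so its presence is common. The narrower E-box CAGCTG, which is contained in CANNTG and was found in 16.3% of all windows, was in none of the 4. ACAAT, in 31.0% of all windows, was matched once, in C1ql3 (on its opposite strand). The Adgrb2 window held no match to any of the 3. Windows for C1ql1 and Adgrb1 were not used here.

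C1ql1 was found mainly in tumor-like cells. Its level there was 596 CPM (the gene's UMIs scaled to a common total of UMIs in the class; 95% Poisson interval, which covers counting error only, 554 to 641) in C-ON and 393 (379 to 408) in FMC_new, a mean of 495 ± 144 CPM (SD, n = 2 libraries). A C1ql1 UMI was found in 72.1% and 60.8% of tumor-like cells, with up to 23 UMIs in a single cell. In T cell-like cells, which should lack the gene, the shares were 0.309% and 0.405%, at median depths of 3250 and 3128 UMIs against 5313 and 5346 in tumor-like cells. With each cell thinned to 1000 UMIs to equalize depth, C1ql1 was found in 38.4% and 28.0% of tumor-like cells and in 0% (0 of 948) and 0.0954% of T cell-like cells. Neither library had a C1ql1 UMI in neuron-like cells, where a count of 0 still allows a level that left tumor-like cells at least 54.8-fold higher in C-ON and at least 22.7-fold higher in FMC_new. Oligodendrocyte-like cells, the next stage of the same lineage, held 0.211 and 0.952 CPM, 2831-fold and 413-fold less. The share of oligodendrocyte-like cells with a UMI was 0.173% in C-ON, under the T cell-like share and read as background, and 0.677% in FMC_new, above the T cell-like share in cells with a median depth of 6921 UMIs. After thinning the latter was 0.155%, with an interval that overlapped that of T cell-like cells. Of the C1ql1 UMIs in all kept cells, 97.3% in C-ON and 94.5% in FMC_new lay in tumor-like cells. Of the 764 cells with 2 or more C1ql1 UMIs, 742 (97.1%, exact 95% interval 95.7% to 98.2%) were tumor-like.

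C1ql2 was also found mainly in tumor-like cells. Its level in tumor-like cells was 135 CPM in both libraries (intervals 115 to 157 in C-ON and 127 to 143 in FMC_new), and 46.5% and 40.5% of these cells had a UMI. T cell-like cells held no C1ql2 UMI in 972 cells of C-ON, which allows a level that left tumor-like cells at least 169-fold higher, and 2 UMIs in 3208 cells of FMC_new. Oligodendrocyte-like cells held 0.105 and 1.06 CPM. In FMC_new, 17 of these 20 UMIs lay in a cluster led by the pituitary hormone genes Prl and Gh (cluster 13), and without it, a choice made after the data were seen, the level was 0.171 CPM. Among other classes, pituitary endocrine-like cells held 40.8 CPM (6 UMIs, in 3 of 19 cells) in C-ON and 4.99 CPM (63 UMIs in 1728 cells) in FMC_new, where astrocyte-like cells held 5.21 CPM (2 UMIs). The 2 pituitary endocrine-like values cover unlike cells. All 19 cells of C-ON lay in cluster 28, which held 227 of the 1728 in FMC_new. Mog was found in 52.6% of these 19 cells and Gh in 0%. Tumor-like cells carried 91.4% and 88.7% of the C1ql2 UMIs in kept cells. Of the 316 cells with 2 or more C1ql2 UMIs, 298 (94.3%, interval 91.1% to 96.6%) were tumor-like.

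C1ql3 was distributed differently from the other ligands. In neuron-like cells it reached 363 CPM (interval 295 to 441) in C-ON and 445 (351 to 557) in FMC_new, a mean of 404 ± 58.3 (SD, n = 2 libraries), and it was found in 57.1% and 65% of them. The neuron-like cluster is small and its leading genes included Avp, Nms and Gad1, which encode vasopressin, neuromedin S and an enzyme of GABA synthesis. Tumor-like cells held 60.6 and 50.9 CPM of C1ql3, and oligodendrocyte-like cells 31.5 and 29.4 CPM. Tumor-like cells were thus 0.167 and 0.114 times the neuron-like level, and 1.92 and 1.73 times the oligodendrocyte-like level. The library ranges of these 3 classes did not overlap. C1ql3 was found in 24.7% and 21.5% of tumor-like cells, 19.8% and 16.5% of oligodendrocyte-like cells, and 1.03% and 0.436% of T cell-like cells, so the oligodendrocyte-like share lay above that of T cell-like cells. After thinning the shares were 6.64% and 4.87% in tumor-like, 3.11% and 2.67% in oligodendrocyte-like and 0.211% and 0.159% in T cell-like cells, in the same order. Because oligodendrocyte-like cells were numerous, they carried 86.1% of the C1ql3 UMIs of C-ON and 44.9% of those of FMC_new, and tumor-like cells 4.38% and 31.6%.

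**Figure D1:**
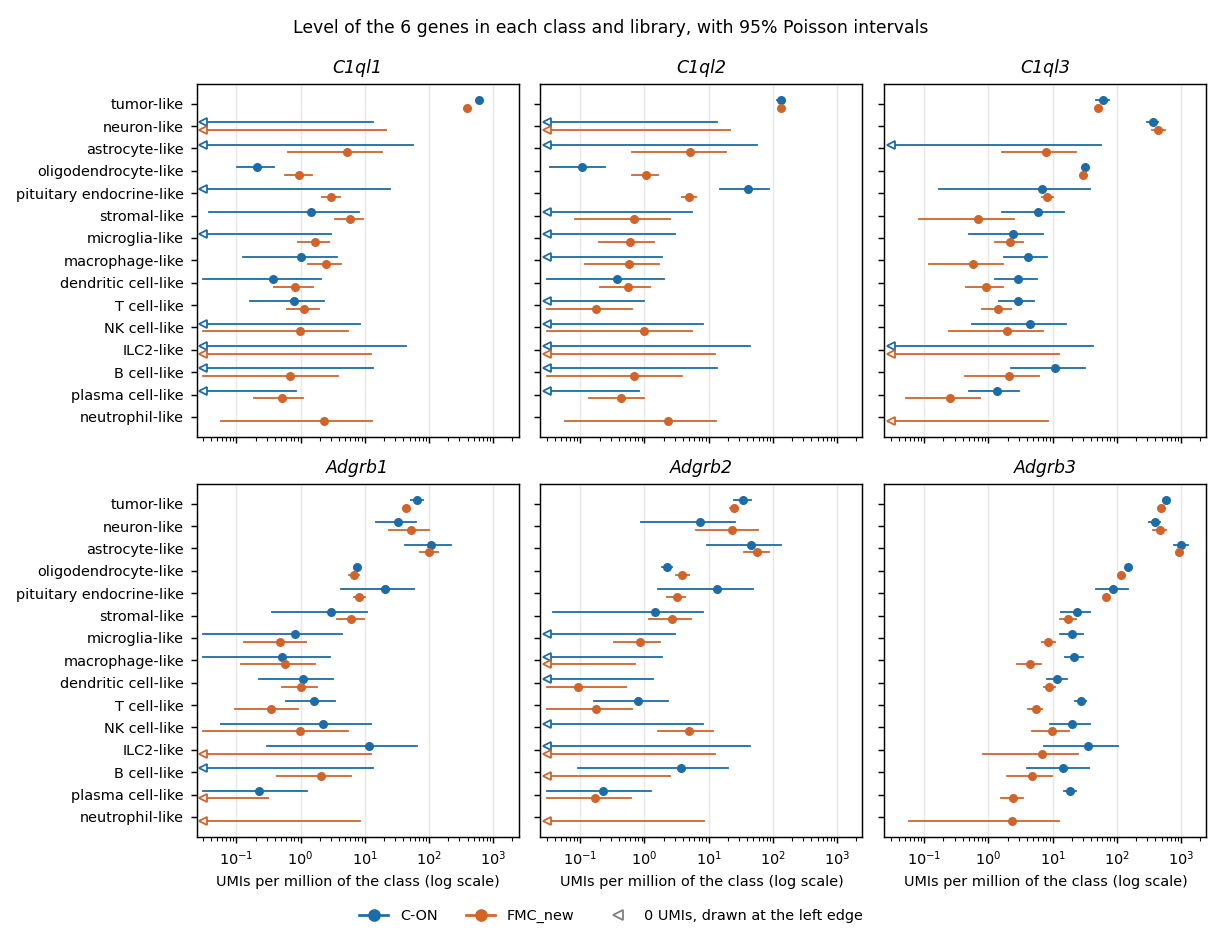
Level of each of the 6 genes (CPM, log axis) in every class with at least 15 cells in a library. Points are C-ON (blue) and FMC_new (orange), lines are 95% Poisson intervals, and open triangles mark classes with 0 UMIs. C1ql1 and C1ql2 are highest in tumor-like cells (596 and 393, and 135 and 135), where the closest other point of C1ql2 is pituitary endocrine-like cells of C-ON (40.8, from 6 UMIs), C1ql3 is highest in neuron-like cells, and the 3 receptor genes are shared between tumor-like, neuron-like and astrocyte-like cells.

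Adgrb3, the receptor for the C1ql proteins, was present in the same tumor-like class. The level was 592 CPM (interval 551 to 637) in C-ON and 491 (475 to 507) in FMC_new, a mean of 542 ± 71.9 (SD, n = 2 libraries), and 80.9% and 70.9% of tumor-like cells had a UMI, with up to 38 in a single cell. Neuron-like cells held 388 (318 to 469) and 468 (372 to 582) CPM of Adgrb3. The library ranges of these classes did not overlap (tumor-like 491 to 592, neuron-like 388 to 468), but in FMC_new the counting intervals did. Astrocyte-like cells exceeded both: they held 1005 CPM (777 to 1279, 66 UMIs in 19 cells) in C-ON and 951 (856 to 1054, 365 UMIs in 121 cells) in FMC_new, where tumor-like cells were at 0.516 times their level. Astrocyte-like cells held no C1ql1, C1ql2 or C1ql3 UMI in C-ON, and 2, 2 and 3 UMIs in FMC_new. At the depth of these cells, a count of 0 in C-ON allows up to 45.7 CPM of each ligand transcript, and 3 UMIs in FMC_new are 7.82 CPM.

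Oligodendrocyte-like cells carried Adgrb3 at 149 and 115 CPM, in 43.9% and 32.6% of cells (11.3% and 7.28% after thinning, against 38.9% and 34.9% in tumor-like cells), and pituitary endocrine-like cells of FMC_new at 67.1 CPM. Adgrb3 in T cell-like cells was 27.7 CPM in C-ON and 5.44 in FMC_new, with shares of 7.72% and 1.90% (2.64% and 0.668% after thinning). Mog moved the same way in T cell-like cells (266 and 18.9 CPM), and so did the abundance of oligodendrocyte-like cells. The part of free RNA in these low values was not tested, and the Adgrb3 levels of T cell-like cells were not read as expression.

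Adgrb1 and Adgrb2 repeated the receptor pattern at lower counts. Adgrb1 was at 66.2 CPM (52.7 to 82.0) and 44.0 (39.4 to 48.9) in tumor-like cells, 32.7 and 52.0 in neuron-like cells (9 UMIs in each library), 107 and 102 in astrocyte-like cells (7 and 39 UMIs), and 7.69 and 6.88 in oligodendrocyte-like cells. Tumor-like and neuron-like levels of Adgrb1 overlapped between libraries and could not be placed in order. Adgrb2 was at 34.3 CPM (24.8 to 46.2) and 25.3 (21.8 to 29.1) in tumor-like cells, 45.7 and 57.3 in astrocyte-like cells (3 and 22 UMIs), 7.26 and 23.1 in neuron-like cells (2 and 4 UMIs), and 2.25 and 3.91 in oligodendrocyte-like cells. In FMC_new, tumor-like cells were at 0.433 and 0.440 times the astrocyte-like level for Adgrb1 and Adgrb2. Microglia-like and macrophage-like cells, the phagocytes of the nerve, were near 0 for BAI1 transcripts. Adgrb1 was at 0.808 and 0.480 CPM in microglia-like cells and 0.517 and 0.574 CPM in macrophage-like cells, with 1 to 4 UMIs in each case, which is at or near the limit of 3 counts. No Adgrb2 UMI was found in the 369 and 1073 macrophage-like cells.

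**Figure D2:**
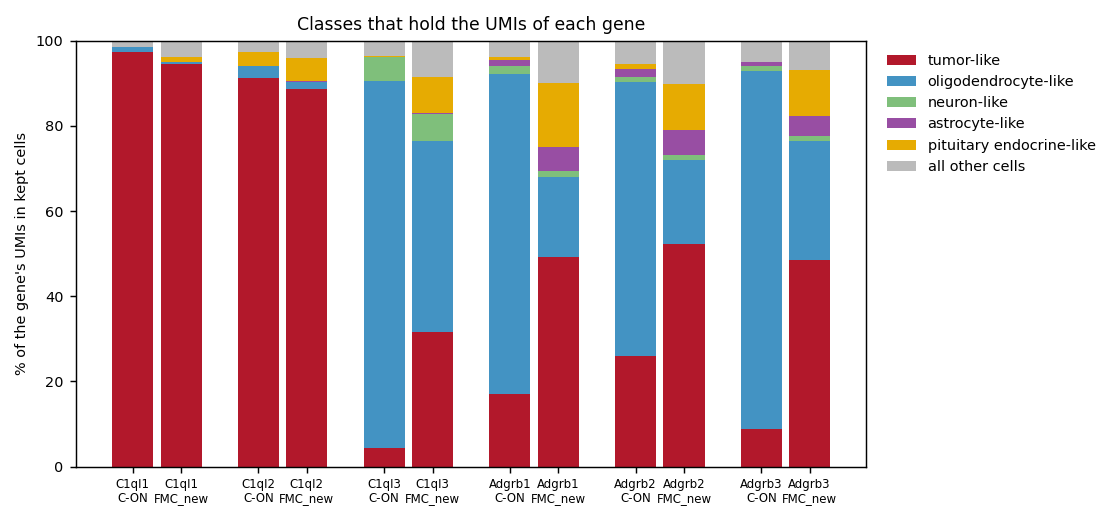
Share of each gene's UMIs (percent of those in kept cells) that lay in each class, with 1 bar for each gene and library. Tumor-like cells hold nearly all of C1ql1 and C1ql2 in both libraries, while C1ql3 and the receptor genes are split between tumor-like and oligodendrocyte-like cells in shares that follow the makeup of the library (Adgrb3: 8.84% tumor-like in C-ON and 48.4% in FMC_new).

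To set these patterns beside all genes, a gene was counted for a class when its CPM was at least 2 times the mean CPM of the other named classes in both libraries, over the 12 classes with at least 20 cells in each. Tumor-like cells met this for 5 of the 6 genes, all but C1ql3, against 16.4% of the 17806 genes compared. At 4 times, the same 5 genes remained, against 7.1% of all genes. C1ql1 was 1685 and 287 times the mean of the other classes, and C1ql2 3128 and 258 times. Adgrb3 was at 8.91 and 8.27 times, Adgrb1 at 11.8 and 6.86 times and Adgrb2 at 24.1 and 7.71 times. A class with 0 UMIs entered this mean as 0, not at the limit of 3 counts, so these values can be too high. In C-ON the other classes held only 1 (dendritic cell-like) and 5 (oligodendrocyte-like) C1ql2 UMIs. Against ILC2-like cells of C-ON, with 0 UMIs, tumor-like cells were at least 16.9-fold (C1ql1) and 3.81-fold (C1ql2) higher. The median of the 6 genes was 17.9 and 7.99 times, and that of all compared genes 1.13 and 1.15 times. Neuron-like cells met the rule for 3 genes, C1ql3, Adgrb1 and Adgrb3, against 17.6% of all genes, and C1ql3 there was 31.3 and 54.2 times the mean of the other classes. Oligodendrocyte-like cells met it for none, against 13.2%. No other class met it for any of the 6 genes, against 11.3% of all genes in stromal-like, 6.69% in microglia-like, 6.53% in T cell-like, 5.51% in macrophage-like, 5.05% in NK cell-like, 5.02% in dendritic cell-like, 3.91% in B cell-like, 2.52% in ILC2-like and 2.03% in plasma cell-like cells. C1ql3 joined the tumor-like count, making 6, in each of the alternatives that left no class of at least 20 neuron-like cells.

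Astrocyte-like cells were not among the 12 classes, since C-ON held 19. With the minimum lowered to 15 cells, a choice made after the data were seen, 14 classes entered. Astrocyte-like cells then met the rule for Adgrb1, Adgrb2 and Adgrb3, at 9.35 and 10.8, 9.35 and 11.6, and 9.25 and 10.2 times the mean of the others, against 8.8% of all genes. Tumor-like cells kept the same 5 genes, against 12.8%, but the receptor values fell to 4.56 and 3.17 for Adgrb1, 5.95 and 3.40 for Adgrb2 and 4.22 and 3.82 for Adgrb3. C1ql2 in C-ON fell to 42.5, with the pituitary endocrine-like cells now among the others. Neuron-like cells kept C1ql3 and Adgrb3, against 15.1%, and lost Adgrb1, which was 1.91 and 3.92 times the mean of the others.

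Other genes known to act with these proteins were read from a list of 19: C1ql4, the related cerebellins, neurexins, glutamate receptor subunits that bind these proteins at synapses, Rtn4r, which BAI receptors bind, and intracellular partners of the BAI receptors. Of these, 15 had enough UMIs, and tumor-like cells met the 2-fold rule for 10, against 16.4% of all genes, among them Cbln1, Nrxn2, Nrxn3, Grik2, Grik4, Grid1, Rtn4r and Dock1. Their median over the 15 genes was 3.46 and 3.78 times the mean of the other classes, and that of all compared genes 1.13 and 1.15 times. Neuron-like cells met the rule for 6 of the 15, against 17.6% of all genes, and oligodendrocyte-like cells for 3, Grik2 and Dock1 among them, against 13.2%.

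Levels of some partners differed between the classes that carry the 6 genes. Nrxn3, which encodes a presynaptic adhesion molecule, was at 1081 and 1205 CPM in tumor-like cells and at 4028 and 3401 in neuron-like cells. Grik2 and Grik4 encode kainate receptor subunits, of which C1ql2 and C1ql3 are known partners. Grik2 was at 337 and 208 CPM in tumor-like cells, a range that overlapped the 214 and 286 of oligodendrocyte-like cells, while Grik4 was at 141 and 76.7 against 11.8 and 13.2. Cbln1, a cerebellin, was low, at 4.78 and 1.69 CPM in tumor-like cells (6 and 13 UMIs), and C1ql4 had no UMI in tumor-like, neuron-like or oligodendrocyte-like cells. Rtn4r met the rule from 3 and 16 UMIs, so its place among the 10 rests on few counts. Tumor-like cells were not its highest class in either library. Rtn4r was 3.39 and 3.43 times the mean of the other classes there, 6.12 and 0 times in neuron-like and 1.88 and 21.7 times in stromal-like cells.

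Across the 12 classes, C1ql1 and C1ql2 were alike in profile, with a Pearson r of log2(CPM + 1) of 0.982 in C-ON and 0.962 in FMC_new. Among the 5 genes most like C1ql1 were Rlbp1 (mean r of 0.987), Plpp4, Inava and C1ql2, and among the 5 most like C1ql2 were A930009A15Rik, Inava, Gpr17 and Rlbp1. Gpr17, which marks precursors committed to become oligodendrocytes, was at 202 and 213 CPM in tumor-like cells and 0.527 and 0.846 in oligodendrocyte-like cells. C1ql3 was closest to Syn1 (0.975), a synaptic vesicle gene, and Adgrb3 to Lrrc4c (0.989) and Mdga2 (0.986), which encode synaptic adhesion proteins. Adgrb1 was closest to Gria4 (0.954), a subunit of AMPA glutamate receptors, which was also among the 5 closest to Adgrb3, and Adgrb2 to Tmem196 (0.913). These correlations describe 12 classes that share their libraries, among 13159 genes, and have no test.

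The tumor-like class was made of 2 clusters, and the level of each of the 6 genes was higher in the first in both libraries, with intervals that overlapped for Adgrb1 and Adgrb2 in C-ON. Cluster 8 (199 and 910 cells, median 6159 UMIs) held C1ql1 at 634 and 461 CPM, against 237 (28 UMIs in 16 cells) and 150 in cluster 19 (16 and 477 cells, median 2170 UMIs). C1ql2 was at 144 and 155 CPM in cluster 8 and at 42.3 and 60.8 in cluster 19. For C1ql3 the levels were 66.0 and 60.3 against 8.47 (1 UMI) and 16.8. Adgrb3 was at 635 and 567 CPM against 186 and 217, Adgrb1 at 68.7 and 51.0 against 42.3 and 18.6, and Adgrb2 at 36.1 and 29.7 against 16.9 and 9.02. With each cell thinned to 1000 UMIs, so that depth is equal, C1ql1 in FMC_new was found in 35.1% of cluster 8 (32.0% to 38.3%) and 12.2% of cluster 19 (9.13% to 15.8%), and Adgrb3 in 41.8% (38.5% to 45.0%) and 19.4% (15.6% to 23.6%). Pdgfra was likewise lower in cluster 19, at 330 against 970 CPM in C-ON and 266 against 852 in FMC_new. Mog was lower in cluster 19 in C-ON, at 59.3 against 251 CPM, and higher in FMC_new, at 102 against 77.2. Immunoglobulin genes were among the leading genes of cluster 19. The part of RNA from other cells in cluster 19 was not tested.

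**Figure D3:**
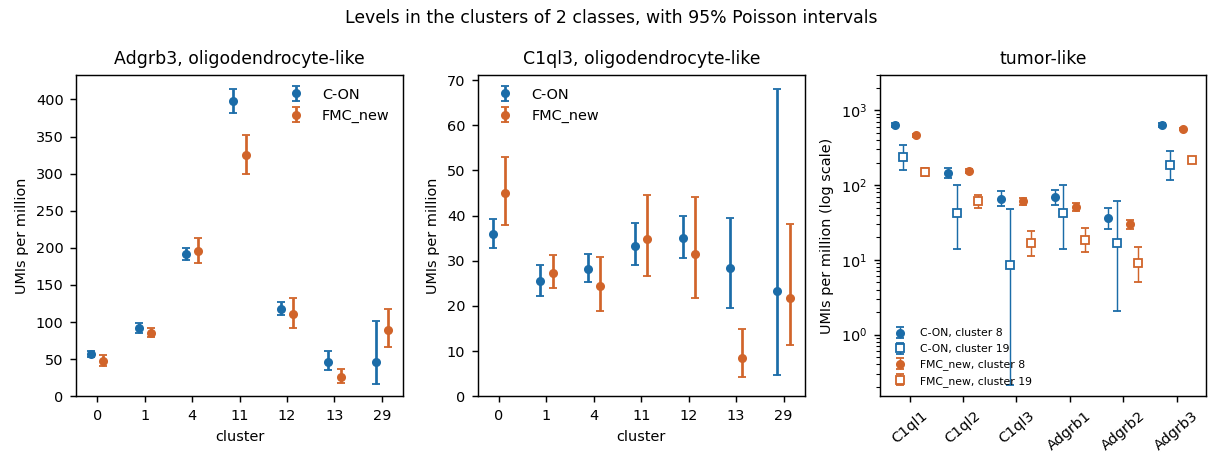
Level (CPM) of Adgrb3 and C1ql3 in the 7 oligodendrocyte-like clusters and of all 6 genes in the 2 tumor-like clusters (log axis on the right), by library with 95% Poisson intervals. Adgrb3 is lowest in cluster 13 (46.6 and 25.9; cluster 29 also at 46.6 in C-ON) and highest in cluster 11 (398 and 325), C1ql3 is flatter, and filled symbols (cluster 8) lie above open ones (cluster 19) for each gene.

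Among oligodendrocyte-like cells, Adgrb3 fell in the same order in both libraries over clusters 11, 4, 12, 1 and 0. Cluster 11, led by Spock1, Ctnna3 and Gm816, held 398 CPM (382 to 414) in C-ON and 325 (299 to 353) in FMC_new. Cluster 4, led by Gm32122 and Nkx2-9, held 191 (184 to 199) and 196 (180 to 213), cluster 12 held 118 and 110, and cluster 1, led by Slc9a3r2, C4b and Serpina3n, held 91.4 and 85.5. Cluster 0, led by Ptgds, was at 57.0 (53.0 to 61.2) and 47.8 (40.5 to 56.0). Within a single named cell type the level of the receptor transcript thus spanned a range that reached the neuron-like level in C-ON. The leading genes of cluster 11 had a median span of 359 kb in the genome, against 12.4 kb for all genes in the files and 12.8 kb for the leading genes of cluster 0, and Adgrb3 is itself a very long gene. The sources used here do not say if reads in introns were counted, and the part of gene length in this order was not tested. Cluster 29, whose leading genes had a median span of 273 kb, held Adgrb3 at 46.6 (6 UMIs in 35 cells) and 89.1 CPM.

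C1ql3 varied less between these clusters. In clusters 0, 1, 4, 11 and 12 it lay between 25.4 and 35.9 CPM in C-ON and between 24.4 and 45.0 in FMC_new. Its level was highest in cluster 0, with an interval that overlapped those of clusters 11 and 12, and Adgrb3 was lower there than in the other 4 of these clusters. Cluster 13, led by Prl and Gh, held 28.3 and 8.37 CPM. All 10 oligodendrocyte markers were counted in cluster 13, but none was among its 10 leading genes, and its first 2 are pituitary hormone genes. C1ql1 had at most 8 UMIs in any oligodendrocyte-like cluster of a library, and C1ql2 at most 4 outside cluster 13 of FMC_new, where it was at 12.9 CPM (17 UMIs). A count of 0 still allows 23.3 CPM in the 35 cells of cluster 29 of C-ON.

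Ligand and receptor transcripts were found together under single tumor-like barcodes. Mog was found in 30.7% of tumor-like cells in C-ON and 13.8% in FMC_new, and doublets were not removed. The part of RNA from a second cell in the shares that follow was not tested. A UMI of C1ql1 and of Adgrb3 shared a cell in 126 of the 215 in C-ON (58.6%, interval 51.7% to 65.3%) and 676 of the 1387 in FMC_new (48.7%, interval 46.1% to 51.4%). Any C1ql gene was found in 78.6% and 69.7% of cells, any Adgrb gene in 87.4% and 74.6%, all 3 C1ql genes in 14.4% and 11.0%, and none of the 6 genes in 3.26% and 13.8%.

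Whether the genes went together beyond the depth of a cell was then examined. In FMC_new, Adgrb3 was found in 80.2% of tumor-like cells with a C1ql1 UMI and 56.4% of those without, but these cells differed in median depth (6098 and 2973 UMIs). Thinned to 1000 UMIs, which left out 4 cells of C-ON and 74 of FMC_new, the shares were 37.0% (32.0% to 42.1%) and 34.1% (31.1% to 37.2%). In C-ON, Adgrb3 was found after thinning in 30 of 81 cells with a C1ql1 UMI and in 52 of 130 without. The intervals overlapped in both libraries, so no tie between C1ql1 and Adgrb3 within the class was detectable at this depth. C1ql2 had thinned shares of 14.4% (11.0% to 18.4%) in cells with a C1ql1 UMI and 10.4% (8.50% to 12.5%) in cells without in FMC_new, and 17.3% and 7.69% in C-ON, and the intervals overlapped in each library. Each pair of genes was read in 2 directions, which rest on the same cells. Of the 60 such thinned comparisons of 2 of the 6 genes, counting each library and each direction, the intervals were apart in 2. These were the 2 directions of a single pair, C1ql2 and C1ql3 in FMC_new. C1ql3 was found there in 9.93% (5.67% to 15.9%) of cells with a C1ql2 UMI and 4.22% (3.14% to 5.54%) of cells without, and C1ql2 in 23.4% (13.8% to 35.7%) of cells with a C1ql3 UMI and 10.9% (9.21% to 12.7%) of cells without. In C-ON, C1ql3 was found in 1 of 24 cells with a C1ql2 UMI and 13 of 187 without, with intervals that overlapped.

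Cells were also split by Pdgfra, the growth factor receptor that marks precursors and was among the markers that named the class. In FMC_new, the thinned share of Adgrb3 was 41.9% (37.9% to 46.0%) in cells with a Pdgfra UMI and 29.1% (25.9% to 32.6%) in cells without, and that of C1ql1 was 35.0% (31.1% to 39.0%) and 22.4% (19.4% to 25.6%). In C-ON the order was the same for both genes, with intervals that overlapped. Pdgfra was itself lower in cluster 19, so this split and the split by cluster share cells. For Gpr17 the thinned shares of Adgrb3 were 33.7% (27.2% to 40.6%) with a UMI and 35.1% (32.3% to 38.0%) without in FMC_new, with overlapping intervals, and those of C1ql1 were 35.6% (29.0% to 42.7%) and 26.6% (24.1% to 29.3%), whose intervals also overlapped.

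**Figure D4:**
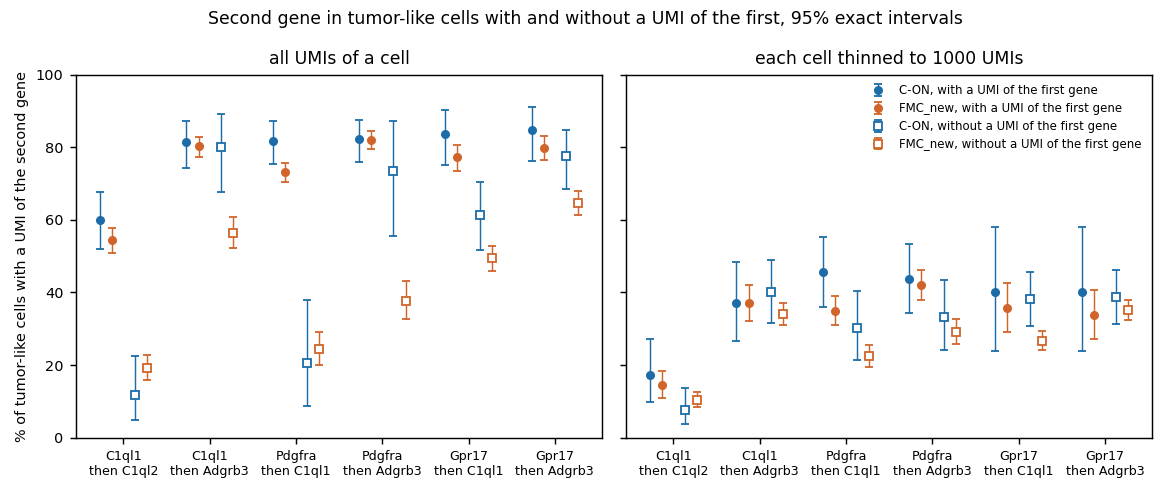
Share of tumor-like cells (percent) with a UMI of the second gene of each pair, among cells with (filled) and without (open) a UMI of the first, by library with exact 95% intervals. At full depth the filled points lie above the open ones, while after thinning each cell to 1000 UMIs the intervals for C1ql1 and Adgrb3 overlap (37.0% and 34.1% in FMC_new).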

How the data were processed

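Single-cell RNA sequencing (10x 5′ v2) libraries of optic nerve cells, 2 in all, were analysed, after debris and myelin removal. The authors deposited filtered counts of UMIs per gene and cell, made on mm10 with Cell Ranger, given as 7.2.0 with the deposited data. The study's methods name an earlier version, and which was used could not be settled. Whether introns and strand entered the counting is not given in the sources used here. Cells with 500 to 5000 genes, 500 to 20000 UMIs and at most 5% mitochondrial UMIs were kept. In Seurat 5.3.0 (R 4.3.3), log-normalized counts (scale 10000) of 2000 variable genes, less the 6 genes described, were integrated by CCA over 30 components and clustered at a resolution of 0.8, giving 37 clusters, of which 32 were named and 5, with 1202 cells, were not. The deposited text names SCTransform, run as an alternative.

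A cluster was named from 24 marker lists when at least 3 markers were each in at least 20% of its cells and at 2 times the mean of the clusters, a rule given a further clause after the clusters were seen. Classes are rebuilt names, not the authors' annotation. Levels (CPM) sum UMIs over a class in each library, with exact Poisson intervals. Shares have exact binomial (Clopper-Pearson) intervals, and both cover counting error only. A count of 0 was bounded with 3 counts per library. Cells are not replicates, and both libraries carry 1 genotype, so no p-value was computed. Genes needed 10 UMIs in the named classes of each library to be compared. Named genes were the 6 genes, 19 partners, the 5 genes most alike to each (among genes with at least 100 UMIs) and Gpr17, Pdgfra, Mog and Gh, with marker and leading genes of clusters added. The genes and lists were chosen with earlier results of these data known. Scrublet (scanpy 1.11.5) called 1 cell of C-ON and 0 of FMC_new, so it has not worked, and doublets were not removed. Calculations used Python 3.11.15, numpy 2.4.6, scipy 1.17.1 and pandas 2.3.3, and were checked on simulated data. Gene positions are from GENCODE on GRCm38. Values of some of the listed genes are not reported here.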

Additional observations from a re-analysis of the deposited data

Results flagged for a closer look

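UMIs of the 6 genes were also present in barcodes outside the named classes, above the limit that a count of 0 allows, and are given as values. In the 2011 barcodes of C-ON and 4523 of FMC_new that the filters removed, C1ql1 was at 5.07 and 12.4 CPM, C1ql2 at 1.19 and 7.99, and C1ql3 at 22.8 and 7.32. Adgrb1 was at 6.20 and 6.15 CPM there, Adgrb2 at 2.95 and 3.48, and Adgrb3 at 271 and 78.0. These barcodes include cells of any type, so no class can be given for them.

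The unnamed clusters held 163 cells of C-ON and 1039 of FMC_new. C1ql1 was at 3.97 and 7.61 CPM in them, C1ql2 at 3.97 and 3.63, C1ql3 at 18.8 and 8.30, and Adgrb3 at 90.2 and 32.0. Adgrb1 was at 4.15 CPM and Adgrb2 at 2.25 CPM in those of FMC_new. The Adgrb3 of C-ON was highest in cluster 34, 61 cells led by genes that included Smoc2 and Dcn, at 277 CPM (26 UMIs), followed by cluster 20 at 132 CPM (50 UMIs in 48 cells). In clusters 34 and 20, 9 of the 10 oligodendrocyte markers were counted. Both stayed unnamed because their leading genes included markers of another class. Cluster 25 (44 and 289 cells) was left unnamed because cell cycle genes led it. This cluster held 4 of the 4 C1ql1 UMIs in C-ON and 33 of the 44 in FMC_new. In FMC_new, 109 of the 185 Adgrb3 UMIs were also in cluster 25. All 7 T cell markers were counted in cluster 25, and its cells were not separated by type.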

How the results depend on the processing

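The tumor-like levels of C1ql1, Adgrb1, Adgrb2 and Adgrb3 moved by less than the SD between libraries under every alternative run. This SD rests on 2 values and was wide for some genes, so it does not rank the genes by stability. With cell types taken from marker UMIs of each cell, C1ql1 went from 495 (SD 144) to 605 CPM and Adgrb3 from 542 (SD 71.9) to 604. C1ql2, whose SD was 0.154 CPM, moved from 135 to 144 CPM with SCTransform, 132 with each library clustered alone, 166 with cell types taken from marker UMIs of each cell, and 135 both at a resolution of 1.2 and as a mean over cells. With choices made after the data were seen, it was 154 CPM without tumor-like cells that had a Mog UMI and 149.9 without cluster 19. C1ql3 moved from 55.8 to 65.4 CPM with marker UMIs and to 63.2 without cluster 19. Leaving out a library gave 393 to 596 CPM for C1ql1, 135 to 135 for C1ql2, 50.9 to 60.6 for C1ql3, 44.0 to 66.2 for Adgrb1, 25.3 to 34.3 for Adgrb2 and 491 to 592 for Adgrb3. With only 2 libraries, such a move is always less than the SD, so it is no check. The number of genes past the 2-fold limit was 5 of the 6 each time. It could not fall, because the rule asks for both libraries. That count was 5 or 6 throughout. Without cluster 13, also a later choice, the oligodendrocyte-like levels of the 6 genes moved by less than the SD between libraries. For C1ql2 this measure cannot show that the cluster is without weight. Its mean went from 0.582 to 0.139 CPM, and its SD was 0.674 with cluster 13 and 0.0442 without. Of the 19 partners, 15 had enough UMIs to be compared in the main run, where 10 passed in tumor-like cells, against 16.4% of all genes. The alternatives at the 2-fold limit gave 9 or 10. At the 4-fold limit 7 passed, against 7.1% of all genes. Thinned to 1000 UMIs, the mean shares of tumor-like cells with a UMI were 33.2% for C1ql1, 11.4% for C1ql2, 5.75% for C1ql3, 7.38% for Adgrb1, 2.99% for Adgrb2 and 36.9% for Adgrb3. The cause of these moves was not tested, except that thinning removes UMIs by its construction. No paired analysis was possible because both libraries belong to 1 group and no result comes from a test. Depth limits the classes of few cells: neuron-like and, in C-ON, astrocyte-like and pituitary endocrine-like levels rest on 19 to 35 cells of a library.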
